A study of Bos taurus with 8 samples.

Results

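Glycogen is the branched glucose store of animal cells, and 29 genes that build it, take it apart or regulate those steps were followed in bovine uterine epithelial cells given progesterone. The genes were chosen by symbol for their known roles, with earlier results of these data known. All 29 were found among the 28709 genes of the deposited table. By role, 8 act in synthesis, 8 in cytosolic breakdown, 2 in lysosomal breakdown and 11 in regulation. Of the 29, 25 had enough counts to be tested.

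The cells were the BUTE line, an immortalized wild-type line of uterine epithelium made from a Holstein cow. One group received 10 µM progesterone for 24 h and the other the vehicle DMSO for 24 h, with 4 RNA sequencing libraries in each group. Both groups had first spent 24 h without serum, steroids or phenol red but with insulin-like growth factor 1, which was given to start glycogen synthesis. The growth factor stayed in the medium of both groups at 50 ng/ml during treatment, so no comparison without it was analysed here. No label tells whether separate cultures gave the 4 libraries of each group, so p-values measure only the spread between these libraries, which may be technical.

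In glycogen synthesis, phosphoglucomutase turns glucose 6-phosphate into glucose 1-phosphate, UDP-glucose pyrophosphorylase activates it, glycogenin primes the particle, glycogen synthase extends the chains and the branching enzyme adds the branches. Glycogen phosphorylase, switched on by phosphorylase kinase, shortens the chains in the cytosol, while acid alpha-glucosidase degrades glycogen inside lysosomes. Protein phosphatase 1, brought to glycogen by its targeting subunits, activates the synthase, and glycogen synthase kinase 3 inhibits it. The uterine epithelium of several mammals stores glycogen and uses it around the time of early pregnancy.

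Library totals ran from 23810861 to 32509786 estimated counts, and libraries carry their column names (progesterone R1, R2, R3 and R6, DMSO R1, R3, R7 and R9). DMSO R7 and R9 stood apart. Correlations across genes of log2 CPM (counts relative to library size, scaled between libraries by TMM factors) were 0.992 between R7 and R9, 0.949 to 0.962 between these and the other 6, and 0.983 to 0.992 among the other 6. Main results are therefore given with all 8 libraries and again without these 2. The epithelial label was only partly borne out by its markers. The keratins KRT8 and KRT19 averaged 1740.0 and 471.7 CPM with progesterone and 2481 and 446.0 CPM with DMSO, whereas EPCAM and CLDN4 averaged 0.426 and 0.00764 CPM with progesterone and 1.42 and 0.0346 CPM with DMSO. Summed stromal markers, vimentin and collagens among them, lay between 12080 and 13280 CPM with progesterone and between 13290 and 20570 CPM with DMSO, and epithelial ones between 1739 and 2659 CPM with progesterone and between 2821 and 3074 CPM with DMSO. Both sums were lower in every progesterone library than in any DMSO library, the stromal one by a small margin. KRT8 made up most of the epithelial sum, with a log2 fold change of -0.51. Of the 7 epithelial markers tested, 4 were below 0 with all libraries and 3 above. Those above were CDH1, KRT7 and KRT19, at 0.37, 0.22 and 0.08. Without R7 and R9, 6 were below 0 and 1 above. Of the 9 stromal markers, 7 had a log2 fold change below 0 and 2 above, whether R7 and R9 were kept or dropped. Vimentin was among the 2 in both cases, averaging 6832 CPM with progesterone and 6360 CPM with DMSO. COL1A1 was at 2046, 1928, 6553 and 5295 CPM in DMSO R1, R3, R7 and R9 and averaged 1698 CPM with progesterone. Its log2 fold change was -1.22, and -0.21 after R7 and R9 were dropped. For COL1A2 these values were -0.70 and -0.31. Of 8 epithelial markers 3 averaged under 1 CPM, and of 9 stromal markers none did. No marker passed in edgeR or limma voom, DESeq2 called 3 epithelial and 3 stromal markers lower, as it did 6.95% of all genes, and 4 of 7 tested epithelial and 4 of 9 stromal markers were lower at an unadjusted p under 0.05 in edgeR, as were 14.5% of all genes. When R7 and R9 were left out, no marker passed in edgeR, and 3 epithelial and 3 stromal markers were lower at an unadjusted p under 0.05, as were 6.10% of all genes. The immune marker PTPRC had a count of 0 in every library. The part of these marker levels in the results below was not tested. Fewer cells of a type and less RNA per cell cannot be told apart in bulk libraries.

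With all 8 libraries, 1 of the 25 glycogen genes tested rose with progesterone, the lysosomal glucosidase GAA, and none fell (edgeR quasi-likelihood test, p adjusted by Benjamini-Hochberg over all genes, under 0.05). Over all 13557 genes tested, 1.69% were called higher and 0.959% lower. At an unadjusted p under 0.05, 2 of the 25 were higher and 6 lower, against 12.3% and 14.5% of all genes. DESeq2 called 1 higher and 2 lower, against 6.55% and 6.95% of all genes, and limma voom called 1 higher and none lower, against 1.47% and 0.575%. The groups did not overlap at 4 of the 25 genes, GAA and GYS1 higher and PGM2 and GSK3B lower, where 7.95% of all genes were higher and 8.22% lower without overlap. With 2 of 25 in each direction, the glycogen genes were near these shares. Of the 25, 12 had a log2 fold change above 0, as had 49.0% of all genes, and the median was -0.01 for both.

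Without DMSO R7 and R9, none of the 25 passed in edgeR, while 0.995% of all 13764 genes tested were called higher and 0.182% lower. At an unadjusted p under 0.05, GAA and GYS1 were higher and GBE1 lower, against 9.77% and 6.10% of all genes. A log2 fold change above 0 was found for 14 of the 25 and for 52.0% of all genes, with medians of 0.03 and 0.01. The 95% interval of the log2 fold change lay within a 1.5-fold change in either direction for 16 of the 25 genes with all libraries and for 19 without R7 and R9, and within a 2-fold change for 23 and 22.

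**Figure D1:**
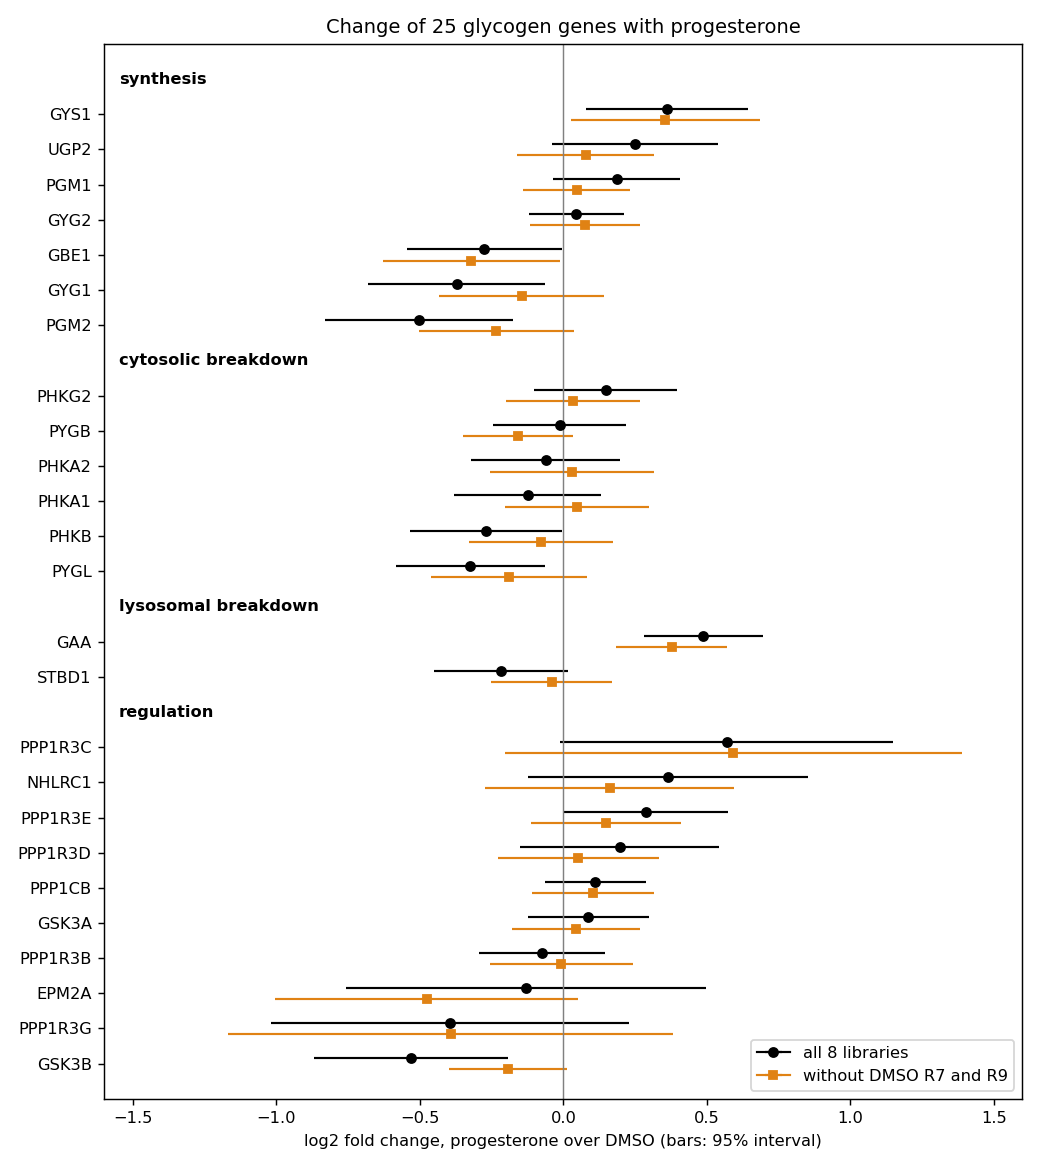
Log2 fold change of progesterone over DMSO for 25 glycogen genes grouped by role, with 95% intervals, from all 8 libraries (black circles) and without DMSO R7 and R9 (orange squares). GAA has the interval farthest from 0 in both, from 0.28 to 0.70 and from 0.18 to 0.57, while those of PGM2, GYG1, PYGL, PHKB and GSK3B exclude 0 only in the fit with all libraries.

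GAA (Entrez Gene 280798, chromosome 19) encodes acid alpha-glucosidase, which frees glucose from glycogen inside lysosomes. It was at 72.3, 65.5, 71.2 and 68.1 CPM in progesterone R1, R2, R3 and R6, against 52.7, 55.0, 46.1 and 43.8 CPM in DMSO R1, R3, R7 and R9. Every progesterone library was above every DMSO library, and R7 and R9 were the lowest of the 8. The means were 69.3 ± 3.10 CPM with progesterone and 49.4 ± 5.30 CPM with DMSO (SD, n = 4 each), a 1.402-fold rise (log2 fold change 0.49 ± 0.09 SE, edgeR adjusted p = 0.0325). When R7 and R9 were left out, the log2 fold change was 0.38 ± 0.09 SE with an adjusted p of 0.0681. Leaving out DMSO R1 or R3 kept the call, with adjusted p of 0.0203 and 0.0303. Leaving out DMSO R7, DMSO R9, or progesterone R1, R2, R3 or R6 ended it, with adjusted p of 0.0939, 0.0803, 0.0822, 0.0847, 0.0837 and 0.0820 and log2 fold changes between 0.43 and 0.53. The count over all genes was between 42 and 82 when 1 of these 6 was left out, against 359 with all 8. Without DMSO R1 or R3 it was 1782 and 795.

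STBD1 (chromosome 6), a glycogen-binding membrane protein that helps bring glycogen to lysosomes, did not share the direction of GAA. It was between 42.7 and 50.9 CPM with progesterone and between 48.3 and 60.4 CPM with DMSO. With all libraries its log2 fold change was -0.22 ± 0.11 SE (edgeR adjusted p = 0.216) and -0.04 ± 0.10 without R7 and R9, which were the highest libraries for this gene.

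Glycogen synthase was present as GYS1, the muscle-type isoform that most tissues use. GYS1 (786335, chromosome 18) was at 107, 116, 157 and 118 CPM in progesterone R1, R2, R3 and R6, against 89.5, 107, 104 and 87.6 CPM in DMSO R1, R3, R7 and R9. The groups lay next to each other without overlap, progesterone R1 at 107.3 and DMSO R3 at 106.9 CPM, and progesterone R3 was far above the rest. It had a log2 fold change of 0.36 ± 0.13 SE with all libraries (edgeR adjusted p = 0.115) and 0.36 ± 0.15 without DMSO R7 and R9 (0.278), with 95% intervals of 0.08 to 0.64 and 0.03 to 0.69. Without progesterone R3 it was 0.23 (adjusted p = 0.208). GYS2, the liver isoform, had a count of 0 in all 8 libraries, which allows up to 3 counts in each, or 0.0917 to 0.124 CPM, for counting error only.

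Both glycogenins, the self-glucosylating primers of the particle, were detected. GYG1 (280812, chromosome 1) was at 18.3, 21.4, 17.3 and 17.7 CPM in progesterone R1, R2, R3 and R6, against 22.8, 19.0, 28.2 and 26.8 CPM in DMSO R1, R3, R7 and R9. DMSO R7 and R9 were above all others, while DMSO R1 and R3 lay within or just above the range of the progesterone libraries. The log2 fold change of -0.37 ± 0.14 SE with all libraries (edgeR adjusted p = 0.130) was -0.15 ± 0.13 without R7 and R9. GYG2 (505258, chromosome X) had the narrowest range over the 8 libraries, relative to its level, of the 7 synthesis genes tested. It was at 241, 243, 268 and 241 CPM in progesterone R1, R2, R3 and R6, against 238, 237, 239 and 248 CPM in DMSO R1, R3, R7 and R9. Its log2 fold change was 0.04 ± 0.07 SE, with a 95% interval of -0.12 to 0.21, and 0.08 ± 0.09 without R7 and R9.

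GBE1 (615745, chromosome 1), the branching enzyme, was at 39.7, 33.0, 48.2 and 41.9 CPM in progesterone R1, R2, R3 and R6, against 46.5, 56.1, 47.0 and 47.3 CPM in DMSO R1, R3, R7 and R9. Progesterone R3 lay among the DMSO libraries and the other 3 below them. It was 1 of 3 members with an unadjusted p under 0.05 in both fits, and its log2 fold change was -0.28 ± 0.12 SE with all libraries (edgeR adjusted p = 0.181) and -0.32 ± 0.14 without R7 and R9 (0.295). It was -0.17 without progesterone R2, the lowest library, -0.20 without DMSO R3, the highest, and -0.37 without progesterone R3.

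The enzymes that supply glucose units differed in direction. PGM2 (506980, chromosome 6), a phosphoglucomutase relative that works mainly on pentose phosphates, was at 45.0, 44.5, 37.1 and 34.2 CPM in progesterone R1, R2, R3 and R6, against 48.0, 47.4, 69.0 and 63.7 CPM in DMSO R1, R3, R7 and R9. All progesterone libraries were below all DMSO libraries, but DMSO R1 and R3 were closer to the progesterone libraries than to R7 and R9. The log2 fold change was -0.50 ± 0.15 SE with all libraries (edgeR adjusted p = 0.0810, DESeq2 adjusted p = 0.0236) and -0.23 ± 0.12 without R7 and R9 (edgeR adjusted p = 0.385). Without DMSO R1 or R3 it passed in edgeR (adjusted p = 0.0372 and 0.0487). The genes called lower over the whole set then numbered 964 and 436, against 130 with all 8 libraries.

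PGM1 (chromosome 3), the main phosphoglucomutase, lay between 134.2 and 148.3 CPM with progesterone and between 106.6 and 137.8 CPM with DMSO, where R7 and R9 were the lowest. UGP2 (chromosome 11), which makes the UDP-glucose that the synthase uses, lay between 93.3 and 121.8 CPM with progesterone and between 71.6 and 106.5 CPM with DMSO, again with R7 and R9 lowest. Neither passed, and their log2 fold changes were 0.19 ± 0.10 SE and 0.25 ± 0.13, or 0.05 ± 0.08 and 0.08 ± 0.11 when R7 and R9 were left out. Of the 7 synthesis genes tested, 4 were above 0 and 3 below in both fits, with medians of 0.04 and 0.05.

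**Figure D2:**
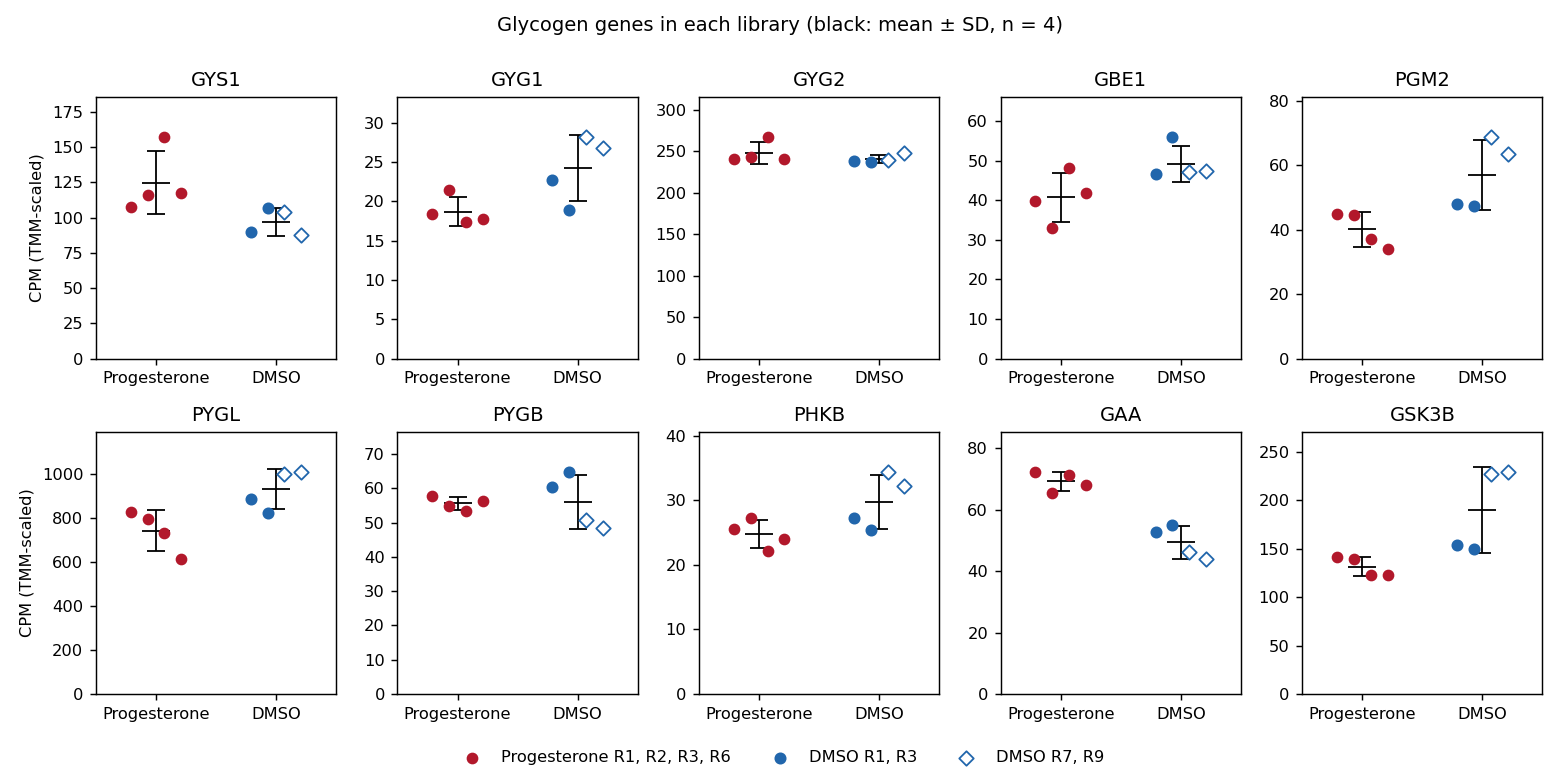
TMM-scaled CPM of 10 glycogen genes in each library, with progesterone libraries in red, DMSO R1 and R3 as filled blue circles and DMSO R7 and R9 as open diamonds, and black marks for the mean ± SD of 4 libraries. In GAA and GYS1 the red points are above all blue ones, whereas in PGM2, GYG1, PYGL, PHKB and GSK3B the open diamonds lie above all other points.

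Of the glycogen phosphorylases, the liver-type PYGL and the brain-type PYGB were tested and the muscle-type PYGM was below the filter. PYGL (505472, chromosome 10) was at 826.0, 797, 732 and 613 CPM in progesterone R1, R2, R3 and R6, against 885, 823, 1002 and 1009 CPM in DMSO R1, R3, R7 and R9. The groups overlapped by a small margin, since progesterone R1 was just above DMSO R3. PYGL had a log2 fold change of -0.32 ± 0.12 SE with all libraries (edgeR adjusted p = 0.121) and -0.19 ± 0.12 without R7 and R9 (0.496). PYGB (505560, chromosome 13) was at 57.7, 55.0, 53.4 and 56.3 CPM in progesterone R1, R2, R3 and R6, against 60.5, 64.8, 50.7 and 48.3 CPM in DMSO R1, R3, R7 and R9. The progesterone libraries lay between the 2 pairs of DMSO libraries, and the log2 fold change was -0.01 ± 0.10 SE with all libraries and -0.16 ± 0.09 when R7 and R9 were left out. PYGM had between 2 and 5 counts in each progesterone library and between 3 and 6 in each DMSO library, too few for a comparison.

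Phosphorylase kinase is built of a catalytic gamma subunit, calmodulin and the regulatory alpha and beta subunits. PHKB (511783, chromosome 18), the beta subunit, was at 25.6, 27.2, 22.1 and 24.1 CPM in progesterone R1, R2, R3 and R6, against 27.2, 25.5, 34.4 and 32.2 CPM in DMSO R1, R3, R7 and R9. DMSO R1 and R3 lay inside the range of the progesterone libraries or at its edge, and R7 and R9 lay above it. The log2 fold change was -0.27 ± 0.12 SE with all libraries (edgeR adjusted p = 0.181) and -0.08 ± 0.11 without R7 and R9.

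The alpha subunits PHKA1 and PHKA2 averaged 19.2 ± 1.17 and 15.8 ± 1.57 CPM with progesterone and 20.96 ± 2.71 and 16.5 ± 1.497 CPM with DMSO (SD, n = 4). The catalytic subunit PHKG2, the form of liver and other tissues, averaged 29.5 ± 2.44 CPM with progesterone and 26.6 ± 3.21 CPM with DMSO. None of the 3 passed in either fit, with log2 fold changes between -0.12 and 0.15 with all libraries and between 0.03 and 0.05 without R7 and R9. PHKG1, the muscle form, had 6 to 9 counts in each progesterone library and 4 to 11 in each DMSO library and was not tested. Of the 6 cytosolic breakdown genes tested, 1 was above 0 with all libraries and 3 with R7 and R9 left out, with medians of -0.09 and -0.02.

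GSK3B (790875, chromosome 1), the beta form of the kinase that inhibits glycogen synthase, was at 141, 139, 123 and 123 CPM in progesterone R1, R2, R3 and R6, against 154, 150, 228 and 229 CPM in DMSO R1, R3, R7 and R9. All progesterone libraries were below all DMSO libraries, with R7 and R9 far above the other 6. The log2 fold change was -0.53 ± 0.15 SE with all libraries (edgeR adjusted p = 0.0770, DESeq2 adjusted p = 0.0164) and -0.19 ± 0.09 without R7 and R9 (edgeR adjusted p = 0.347). Without DMSO R1 or R3 it passed in edgeR (adjusted p = 0.0295 and 0.0406). Over all genes, 964 and 436 were then called lower, against 130 with all 8 libraries. GSK3A (chromosome 18), the alpha form, averaged 121 ± 12.3 CPM with progesterone and 114 ± 8.79 CPM with DMSO (SD, n = 4). Its log2 fold change was 0.09 ± 0.09 SE, with a 95% interval of -0.12 to 0.30, and 0.04 when R7 and R9 were left out.

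PPP1CB (chromosome 11), the catalytic beta subunit of protein phosphatase 1, averaged 239 ± 17.2 CPM with progesterone and 221 ± 3.69 CPM with DMSO (log2 fold change 0.11 ± 0.08 SE, or 0.10 when R7 and R9 were left out). Of its glycogen-targeting subunits, PPP1R3C (chromosome 26), also known as protein targeting to glycogen, had the highest fold change. It was at 10.7, 11.97, 21.9 and 10.4 CPM in progesterone R1, R2, R3 and R6, against 6.69, 11.8, 9.03 and 9.64 CPM in DMSO R1, R3, R7 and R9. Progesterone R3 stood alone, and DMSO R3 lay among the other progesterone libraries. Its log2 fold change was 0.57 ± 0.26 SE with all libraries (edgeR adjusted p = 0.193), 0.59 ± 0.35 without R7 and R9, and 0.25 without progesterone R3 (adjusted p = 0.448).

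PPP1R3B, the subunit known from liver, averaged 43.7 ± 3.34 CPM with progesterone and 46.0 ± 4.50 CPM with DMSO, and its log2 fold change was -0.07 ± 0.10 SE (SD, n = 4), or -0.01 with R7 and R9 left out. PPP1R3E, PPP1R3D and PPP1R3G averaged 20.8 ± 0.698, 18.9 ± 2.01 and 0.636 ± 0.0876 CPM with progesterone and 17.1 ± 2.98, 16.5 ± 3.22 and 0.838 ± 0.165 CPM with DMSO. Their log2 fold changes were 0.29 ± 0.13, 0.20 ± 0.16 and -0.40 ± 0.28 SE, and 0.15, 0.05 and -0.39 without R7 and R9. PPP1R3A, the subunit of striated muscle, had a count of 0 in all 8 libraries.

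Laforin, a phosphatase that removes phosphate from glycogen, and its partner malin, a ubiquitin ligase, are encoded by EPM2A and NHLRC1. EPM2A averaged 2.11 ± 0.291 CPM with progesterone and 2.31 ± 0.810 CPM with DMSO, and NHLRC1 4.80 ± 0.645 CPM with progesterone and 3.73 ± 0.887 CPM with DMSO (SD, n = 4). Their log2 fold changes were -0.13 ± 0.28 and 0.37 ± 0.22 SE with all libraries and -0.48 ± 0.24 and 0.16 ± 0.20 with R7 and R9 left out, and neither passed. Of the 10 regulatory genes tested, 6 were above 0 and 4 below in both fits, with medians of 0.10 and 0.05.

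**Figure D3:**
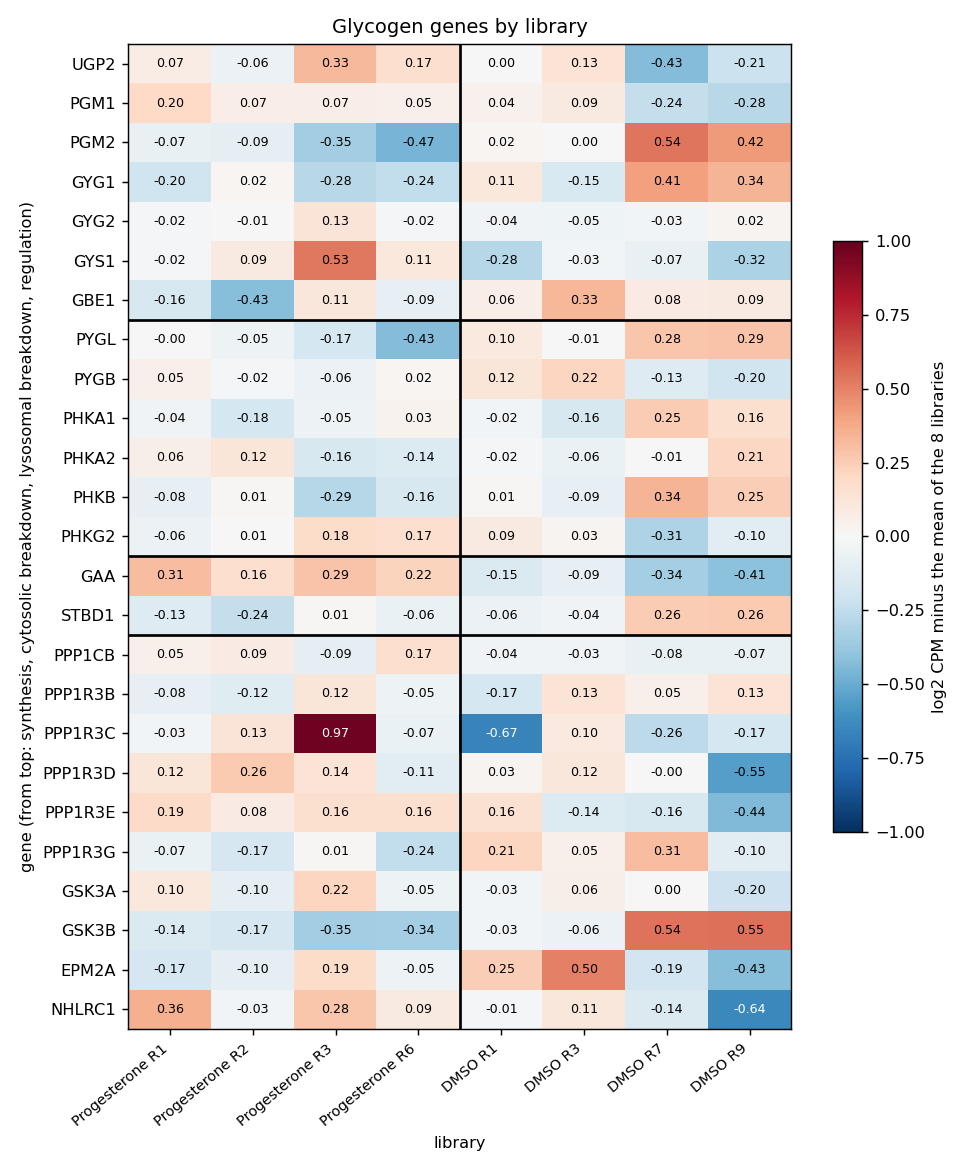
Log2 of CPM plus 0.5 minus the mean of the 8 libraries for the 25 tested glycogen genes (rows, by role) in the progesterone and DMSO libraries (columns). DMSO R7 and R9 have like colours in most rows, with GSK3B at 0.54 and 0.55, and progesterone R3 has the extreme value of PPP1R3C at 0.97.

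Much of the spread of these genes within the DMSO group followed R7 and R9. In 7 of the 25 genes (PGM2, GYG1, PYGL, PHKA1, PHKB, STBD1 and GSK3B) both libraries were above the other 6, and in 8 (UGP2, PGM1, PYGB, PHKG2, GAA, PPP1R3E, EPM2A and NHLRC1) both were below them. Over all genes tested, 25.2% had both above and 24.0% both below, so the glycogen genes were near the general level. GYS1, GBE1, GYG2, PPP1R3C, PPP1R3G, PPP1CB and GSK3A were not among them, and their log2 fold changes with and without R7 and R9 differed by less than 0.05. The remaining 3, also not among them, were PPP1R3D, at 0.20 in the first fit and 0.05 in the second, PPP1R3B, at -0.07 and -0.01, and PHKA2, which turned its sign, at -0.06 and 0.03.

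Of 14 genes that supply or release glucose 6-phosphate, 10 were tested and none passed in edgeR, DESeq2 or limma voom, while 1 was lower and none higher at an unadjusted p under 0.05, against 14.5% and 12.3% of all genes. With R7 and R9 left out these counts were again 1 and none, against 6.10% and 9.77%. PGM2L1, which makes glucose 1,6-bisphosphate for the phosphoglucomutases, averaged 4.80 ± 0.569 CPM with progesterone and 6.95 ± 1.58 CPM with DMSO (log2 fold change -0.53 ± 0.20 SE, or -0.22 when R7 and R9 were left out). SLC37A4, the carrier of glucose 6-phosphate into the endoplasmic reticulum, averaged 18.9 ± 1.13 CPM with progesterone and 21.7 ± 1.05 CPM with DMSO (SD, n = 4). It was the 1 gene of the 10 that was lower without overlap between the groups, against 8.22% of all genes. Its log2 fold change was -0.20 ± 0.09 SE (edgeR adjusted p = 0.194), or -0.25 (0.295) when R7 and R9 were left out. G6PC3, the ubiquitous glucose 6-phosphatase, had a log2 fold change of -0.18 ± 0.09 SE, or -0.11 with R7 and R9 left out. Of the 10 genes, 8 were below 0 with all libraries and 9 when R7 and R9 were left out. That left 2 and 1 above 0, against 49.0% and 52.0% of all genes. The list's median log2 fold change was -0.09, and -0.20 without R7 and R9, where the 25th percentile of all genes was -0.13.

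Of 29 upstream kinase, calmodulin and phosphatase genes, 27 were tested and none passed in edgeR, DESeq2 or limma voom, while 1 was higher and none lower at an unadjusted p under 0.05, against 12.3% and 14.5% of all genes. When R7 and R9 were left out, 2 were higher and none lower, against 9.77% and 6.10%. The 1 with all libraries was CALM2, 1 of 3 genes for calmodulin, at 445 ± 105 CPM with progesterone and 338 ± 27.1 CPM with DMSO (log2 fold change 0.40 ± 0.15 SE, edgeR adjusted p = 0.135, or 0.33 and 0.434 when R7 and R9 were left out). AKT1, an insulin-pathway kinase that inactivates GSK3, averaged 297 ± 24.97 CPM with progesterone and 332 ± 34.1 CPM with DMSO (SD, n = 4), and its log2 fold change was -0.16 ± 0.10 SE, or -0.02 with R7 and R9 left out. The list's median log2 fold change was 0.01, and -0.01 without R7 and R9.

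Lysosomal glycosidases and cathepsins, membrane and autophagy partners and related genes made up a list of 33, all of them tested. Not all of their products sit in the lysosome with GAA. None passed in edgeR or limma voom, and DESeq2 called 8 higher and none lower, against 6.55% and 6.95% of all genes. At an unadjusted p under 0.05 in edgeR, 11 of the 33 were higher and 1 lower, against 12.3% and 14.5% of all genes. The cathepsins CTSB and CTSA and the calcium channel MCOLN1 averaged 798 ± 106, 326 ± 17.2 and 66.2 ± 11.8 CPM with progesterone and 591 ± 68.5, 234 ± 52.4 and 49.1 ± 3.98 CPM with DMSO (SD, n = 4). Their log2 fold changes were 0.43 ± 0.12, 0.48 ± 0.15 and 0.43 ± 0.13 SE, with edgeR adjusted p of 0.0738, 0.0853 and 0.0800. When R7 and R9 were left out, the log2 fold changes of CTSB, CTSA and MCOLN1 were 0.32 ± 0.12, 0.24 ± 0.09 and 0.42 ± 0.15 SE, with adjusted p of 0.240, 0.234 and 0.219. The membrane protein LAMP1 had a log2 fold change of 0.45 ± 0.15 SE with all libraries and of 0.23 ± 0.10 SE with R7 and R9 left out (edgeR adjusted p = 0.306). Without R7 and R9, 8 of the 33 were higher at an unadjusted p under 0.05 and none lower, against 9.77% and 6.10% of all genes, and none passed. Of the 33, 25 were above 0 with all libraries and 28 when R7 and R9 were left out, against 49.0% and 52.0% of all genes. Like the other wider lists, this one was chosen with earlier results of these data known, so these shares are no independent comparison. The list's median log2 fold change was 0.12, and 0.14 without R7 and R9.

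**Figure D4:**
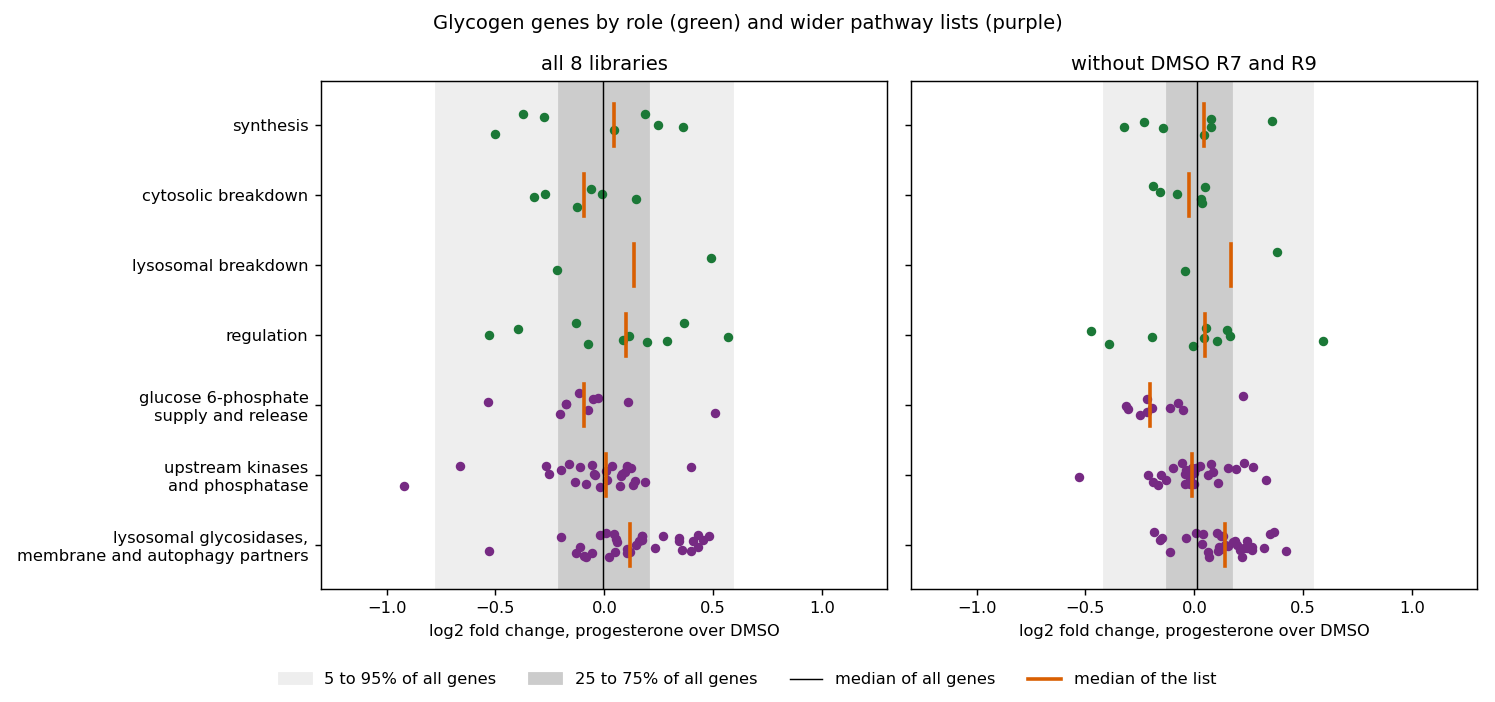
Log2 fold changes of progesterone over DMSO for glycogen genes by role (green) and for wider pathway lists (purple), 1 point per gene, with list medians in orange over the spread of all genes tested in grey, from all 8 libraries (left) and without DMSO R7 and R9 (right). List medians run from -0.09 to 0.14 on the left and from -0.20 to 0.17 on the right. On the right the median of the glucose 6-phosphate list, at -0.20, is below the 25th percentile of single genes at -0.13, though none of its 10 genes passed. There, 28 of the 33 genes in the lysosomal and autophagy list are above 0, against 52.0% of all genes.

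In the reference annotation, 5 of the 25 tested genes overlap another protein-coding gene, and the sources used here do not say how strand was used in counting. Of these neighbours, that of GAA had a count of 0 in every library, and ABHD12B, which overlaps PYGL, averaged 0.531 CPM with progesterone and 0.935 CPM with DMSO. FAM217B, which overlaps PPP1R3D, averaged 9.99 CPM with progesterone and 7.96 CPM with DMSO (log2 fold change 0.33, edgeR adjusted p = 0.265), and CCDC189, which overlaps PHKG2, averaged 1.52 CPM with progesterone and 1.14 CPM with DMSO. The neighbour of PYGB was not analysed here.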

How the data were processed

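Poly(A) RNA libraries of a stranded kit were made from total RNA, per the labels' protocols. The authors deposited estimated counts per gene for 8 columns, and the table's name gives length normalization by a method not given in the sources used here. Salmon 1.4.0, bcl2fastq and the build ARS-UCD1.2 are named in the submitters' processing notes, without roles. Column names give the group but not the sample, so libraries entered as unnumbered replicates. Pairs within a group differed beyond sampling noise (chi-square of 14.2 to 129 per degree of freedom).

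Counts were rounded, filtered by edgeR's filterByExpr (13557 genes), scaled by TMM and tested with edgeR 4.0.16 (quasi-likelihood, robust, two-sided, group only) in R 4.3.3, with Benjamini-Hochberg adjustment over all genes and a threshold of 0.05. CPM are TMM-scaled and not per length, so levels of different genes are not compared. Standard errors are the log2 fold change over the square root of F. Alternatives were other scalings, filters and tools (DESeq2 1.42.0, limma voom 3.58.1), unrounded counts, a threshold of 0.01, left-out libraries and a replicate block. Values of every library are given for members with an unadjusted p under 0.05 in either comparison and for isoforms of synthase, glycogenin and phosphorylase, and of each wider list up to 6 genes with the smallest p may be named. PPP1R3C was added after its values were seen. Members, lists and the removal of R7 and R9 were chosen with earlier results of these data known. Overlaps of genes were read from the RefSeq table of assembly ARS-UCD2.0, in which all 29 identifiers were found. Some genes counted in the lists are not reported here.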

Additional observations from a re-analysis of the deposited data

Results flagged for a closer look

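Of 54 sets of 4 libraries of 1 gene and group, 4 had a library far from the other 3, relative to the range of the set. Chance gives such a flag in about 1 in 20 sets. Progesterone R3 was far above the other progesterone libraries for PPP1R3C, at 21.9 CPM against 10.4 to 11.97 CPM. For GYG2 it was above them by a small margin, at 268 CPM against 241 to 243 CPM. Progesterone R1 was above the others for PGM1, at 148 CPM against 134 to 136 CPM. DMSO R3 was above the other DMSO libraries for GBE1, at 56.1 CPM against 46.5 to 47.3 CPM.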

How the results depend on the processing

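Of 424 values of single genes under the alternatives, 396 kept their direction and their side of the threshold. DESeq2's size factors, library size only, unrounded counts, a mean of at least 1 CPM, no filter and limma voom left 1 member higher and none lower. Over all genes 1830 passed in DESeq2, 27 at a threshold of 0.01, 162 without DMSO R7 and R9 and between 42 and 1782 with 1 library left out. DESeq2 called 2 members lower. None was higher at 0.01 or without R7 and R9, and with 1 library left out 0 to 1 were higher and 0 to 2 lower. The cause of these shifts was not tested. Direction reversed, without a call on either side, for PYGB (0.0139 with no filter, -0.0771 to 0.0659 with 1 library left out), PHKA1 (0.0474 without R7 and R9 and 0.0470 in the block), PHKA2 (0.0293 without R7 and R9, -0.0961 to 0.0035 with 1 library left out), PPP1R3B (0.0385 in the block) and EPM2A (-0.292 to 0.0847 with 1 library left out). In the replicate block the column number was a term, but the groups share only the numbers 1 and 3, which leaves 1 residual degree of freedom. With this block 2531 of 13557 genes passed, 1450 of them higher and 1081 lower. Of the 25 members tested, 3 were higher (GYS1, GAA and PPP1R3C) and 2 lower (GBE1 and GSK3B). The deviations of libraries with these numbers correlated at 0.226 and 0.210, and no label says that the numbers pair cultures. Over the 17 alternatives with a value, adjusted p ran from 1.15e-05 to 0.0939 for GAA, from 1.77e-06 to 0.278 for GYS1, from 9.77e-07 to 0.457 for PPP1R3C and from 0.0488 to 0.407 for GBE1, with the lowest in the block. PYGM and PHKG1 had too few counts to test.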

Other observations

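The balance of synthase to phosphorylase counts within a library, a pair chosen after its values were seen and given without a test, differed between most libraries. The ratio of GYS1 to PYGL was 0.130, 0.145, 0.215 and 0.192 in progesterone R1, R2, R3 and R6, against 0.101, 0.130, 0.103 and 0.0868 in DMSO R1, R3, R7 and R9. The values of progesterone R1 and DMSO R3 met at 3 digits. It is a ratio of counts of genes of unlike length, so only its differences between libraries can be read. The ratio of the lysosomal GAA to PYGL was 0.0875, 0.0821, 0.0972 and 0.111 in the same progesterone libraries, against 0.0596, 0.0668, 0.0460 and 0.0434 in the DMSO libraries, without overlap. GAA and GYS1 alone already did not overlap between the groups, so neither ratio is a separate result. Ratios of other pairs were also calculated, and not all of them are reported here.

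The ratio of GSK3A to GSK3B was 0.927 ± 0.136 with progesterone and 0.631 ± 0.180 with DMSO (SD, n = 4), but DMSO R1 and R3 alone were at 0.750 and 0.816, next to progesterone R2 at 0.787. Among the 25 tested genes, progesterone R3 held the highest value of the 8 libraries in 6 and the lowest in 5, and DMSO R9 the highest in 4 and the lowest in 9.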
